A study of Homo sapiens with 6 samples.

Results

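Cells keep iron in ferritin, a shell built of light and heavy chains, take it up with the transferrin receptor, release it through ferroportin and recover it from heme with the heme oxygenases. The 10 genes described here are FTL and FTH1 (the ferritin chains), NCOA4 (the receptor that brings ferritin to lysosomes), TFRC (transferrin receptor), SLC11A2 (the importer DMT1), SLC40A1 (ferroportin), HMOX1 and HMOX2 (inducible and constitutive heme oxygenase), and ACO1 and IREB2 (the iron regulatory proteins). They were chosen by name from the 58735 genes of the deposited table, and each name matched 1 row. RNA-seq was performed in A549 cells, a human lung carcinoma line, transduced with IL17D in a lentiviral vector with the human PGK promoter, to learn how this cytokine alters lung cancer cells. The control A549 cells overexpressed the empty vector, and both groups grew in RPMI1640 medium with serum. There were 3 libraries of each kind, and whether these came from separate cultures or transductions is not given in the sources used here, so the p-values measure the spread between these libraries, which may be technical.

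Most of this system is controlled after transcription. When iron is scarce, the iron regulatory proteins bind stem-loops called iron-responsive elements, which blocks translation where the element lies before the coding sequence, as in the ferritin mRNAs, and stabilizes the mRNA where it lies behind it, as in the TFRC mRNA. Transcription of the ferritin genes and HMOX1 is also raised by NRF2, whose inhibitor KEAP1 is mutated in A549 cells, and HMOX1 is repressed by BACH1, a heme sensor. RNA counts show mRNA levels and not how much ferritin protein was made or how much iron the cells held.

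The stem-loops that link the storage, uptake and export genes were searched in the annotated transcripts (GENCODE release 29, GRCh38), because they are the known sequences through which iron regulatory proteins act on these mRNAs. The pattern was CNNNNNCAGTGNNNNNN, 17 bases read on the transcript strand, in which the last 5 bases pair with the 5 that follow the first C (G pairing with T allowed). Each site is given 5′ to 3′ with 6 flanking bases on each side, and the capitals mark the loop.
FTL, chr19:48965335-48965363, plus strand, 5′ UTR: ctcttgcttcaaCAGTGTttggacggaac
FTH1, chr11:61967574-61967602, minus strand, 5′ UTR: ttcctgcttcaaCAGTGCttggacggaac
SLC40A1, chr2:189580661-189580689, minus strand, 5′ UTR: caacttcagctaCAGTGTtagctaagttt
TFRC, chr3:196050979-196051007, minus strand, 3′ UTR: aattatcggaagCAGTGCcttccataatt
TFRC, chr3:196050575-196050603, minus strand, 3′ UTR: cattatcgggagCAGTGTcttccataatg
TFRC, chr3:196050510-196050538, minus strand, 3′ UTR: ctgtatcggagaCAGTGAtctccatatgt
TFRC, chr3:196050463-196050491, minus strand, 3′ UTR: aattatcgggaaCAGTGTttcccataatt
The FTL and FTH1 stretches have 26 of 29 bases in common, whereas the FTL stretch and that of SLC40A1 have 14. Of the coding transcripts annotated for SLC40A1, 1 of 5 holds the element, against 7 of 8 for FTH1 and 3 of 4 for TFRC, and counts per gene do not separate these transcripts. No match was found in the transcripts of SLC11A2, NCOA4, HMOX1, HMOX2, ACO1 and IREB2. A match was also missing in EPAS1 and CDC42BPA, genes listed for a known iron-responsive element. A missing match therefore does not mean that no element is present. Over 19702 protein-coding genes, 0.183% hold a match in a 5′ UTR and 0.67% in a 3′ UTR. A match describes the sequence only.

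The libraries held 14319398 to 16521021 counts on genes, and IL17D had 18 to 34 counts in the control libraries and 26772 to 32155 in those of IL17D-overexpressing cells, in accordance with the labels. Of the epithelial markers, KRT8 and KRT18 had at least 3504 CPM (counts scaled to sequencing depth, here with TMM-scaled library totals) in every library, whereas KRT19 and EPCAM lay below 1.31 CPM and CDH1 fell from 43.4 to 35.7 CPM (adjusted p = 0.0306 in edgeR's test). CDKN2A, a gene deleted in A549, and the leukocyte marker PTPRC had no count, which allows at most 3 counts, or 0.210 CPM, in a library. CD68, PECAM1 and VWF had 4 counts or fewer per library. The fibroblast gene COL1A1 had 19.2 to 24.3 CPM, and the summed CPM of all 5 markers of other cell types ranged from 22.7 to 24.4 in control libraries and from 19.3 to 23.3 in those with IL17D. The part of these differences in the results was not tested.

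The ferritin genes were by far the most abundant of the 10. Per kilobase of exons, FTL had 4158 CPM in control cells and ranked 8th of the 15754 genes with enough counts to be tested, and FTH1 had 639 CPM and ranked 36th. HMOX1 followed with 62.6 CPM per kilobase, TFRC with 49.4, NCOA4 with 29.04 and IREB2 with 16.6. ACO1, HMOX2 and SLC11A2 had 9.30, 8.98 and 6.09, and SLC40A1 was lowest with 1.92. In this order, each gene's lowest library lay above the next gene's highest library, apart from ACO1 and HMOX2, which overlapped. The inducible heme oxygenase gene was thus present above the constitutive one, and IREB2 above ACO1, in all 6 libraries on this scale. The lengths were those of all annotated exons merged, so ranks and order depend in part on the annotation. Without division by length, FTL ranked 13th and FTH1 56th. TFRC and IREB2 then lay above HMOX1, with means of 389.3, 179.5 and 150.4 CPM in control cells. Together the 10 genes took 0.555% to 0.608% of all counts, most of it from the ferritin genes.

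**Figure D1:**
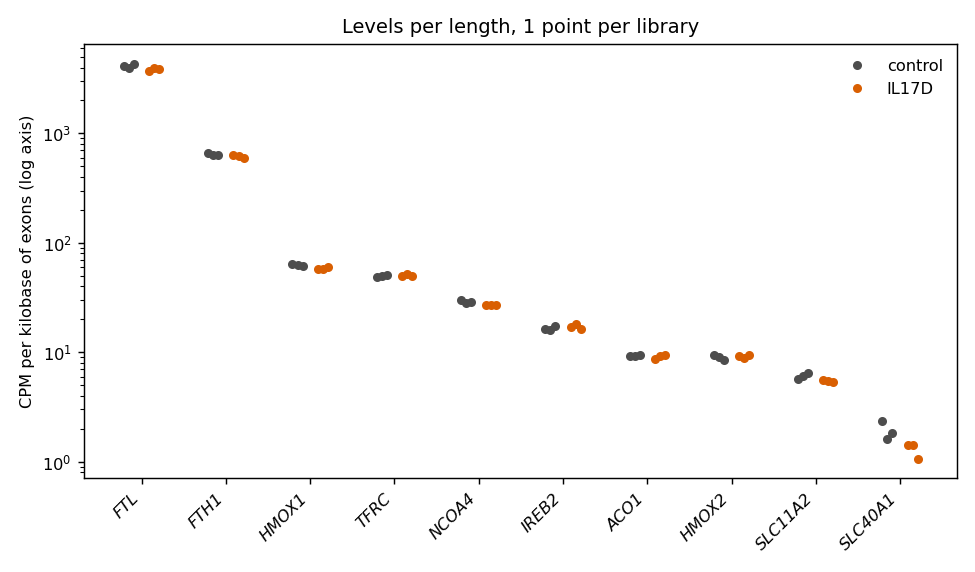
CPM per kilobase of exons (log axis) for the 10 genes in each of the 3 control and 3 IL17D-overexpressing libraries, 1 point per library, ordered by the control mean. The levels span from 4331 for FTL to 1.07 for SLC40A1, and the colours of the groups lie close together for every gene beside that span.

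All 10 genes passed the filter on low counts and were compared between IL17D-overexpressing and control cells in edgeR's quasi-likelihood test, fitted over all 15754 genes, with p-values adjusted over all of them. FTL fell, and it was the only 1 of the 10 genes whose adjusted p was under 0.05 (1.58% of all tested genes in either direction, 0.908% lower). At an unadjusted p under 0.05, 5 of the 10 genes were lower (FTL, NCOA4, SLC11A2, SLC40A1 and HMOX1) and 0 were higher, beside 5.99% of all tested genes lower and 5.59% higher. In the same 5 genes all 3 IL17D libraries lay below all 3 control libraries, as in 8.31% of all tested genes, and none of the 10 had all IL17D libraries above, as 7.48% of all tested genes did. The median log2 fold change was -0.08 over the 10 genes and -0.00044 over all tested genes. The genes were chosen with earlier results of these data known, so these counts describe them. Without control replicate 1, IL17D replicate 1 or IL17D replicate 2, the unadjusted count was 3, since NCOA4 and HMOX1 no longer passed.

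**Figure D2:**
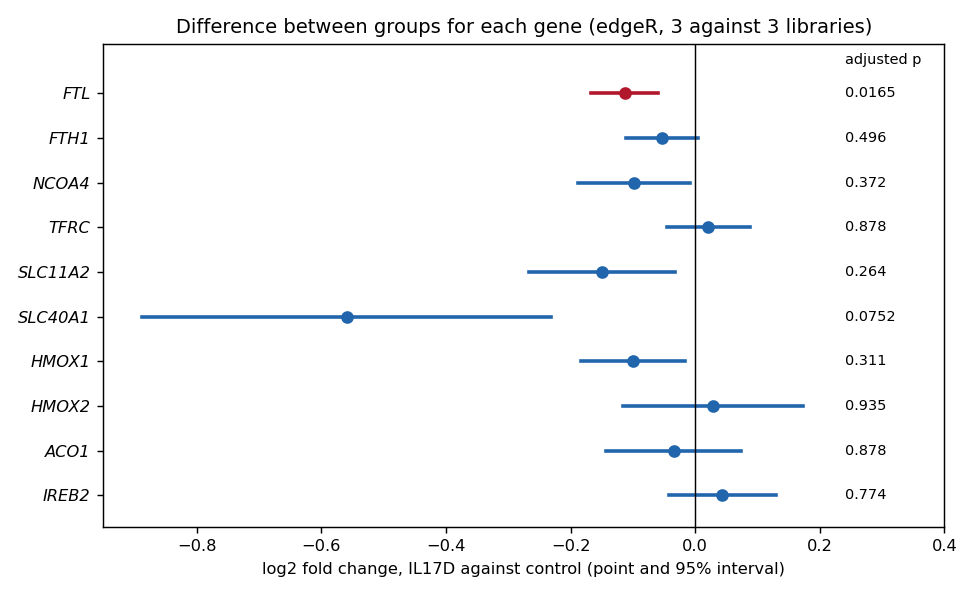
Log2 fold change of each gene in IL17D-overexpressing against control cells (point) with its 95% interval (line) and, at the right, the adjusted p of the edgeR fit. FTL, drawn in red, is the gene whose adjusted p was under 0.05, SLC40A1 has the lowest estimate and the widest interval, and the intervals of FTH1, TFRC, HMOX2, ACO1 and IREB2 cross 0.

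Among the storage genes, FTL (ENSG00000087086, chromosome 19, 48965301 to 48966878), the light ferritin chain, which aids mineral formation inside the shell, had 3657, 3492 and 3802 CPM in control replicates 1, 2 and 3. It had 3288, 3466 and 3370 CPM in the IL17D replicates. The groups did not overlap, but control replicate 2 and IL17D replicate 2 lay close together, so the separation rests on a narrow gap. The means were 3650 ± 155 CPM in control cells and 3375 ± 88.9 CPM in IL17D-overexpressing cells (SD, n = 3 each), a log2 difference of -0.11 with a standard error of 0.027 (adjusted p = 0.0165 in edgeR's test). As a linear change this is -7.56%, with a 95% interval from -11.0% to -4.0%. The counting error of FTL was only 0.426% of its level, and its spread between control libraries was 4.25%, so depth did not limit this comparison. The adjusted p was 0.0965 without control replicate 3, 0.2 without IL17D replicate 1 and 0.138 without IL17D replicate 3, and the call was lost in each case while the direction stayed the same.

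FTH1 (ENSG00000167996, chromosome 11, 61959718 to 61967660), the heavy chain, which oxidizes iron for storage, had 1337, 1280 and 1275 CPM in the control replicates. In the IL17D replicates it had 1279, 1263 and 1211 CPM. The groups overlapped, because IL17D replicate 1 reached the level of control replicates 2 and 3. Its log2 fold change was -0.05 (standard error 0.028, adjusted p = 0.496 in edgeR's test), with a 95% interval of the linear change from -7.38% to 0.356%. Both ferritin genes have many processed pseudogenes. Read on either strand, 33.3% of the 31-base stretches in FTL transcripts and 63.0% of those in FTH1 transcripts occur in other genes. For FTH1 these genes include BEST1, described below, as well as pseudogenes. The 16 listed FTL pseudogenes together held at most 0.0333% of the FTL count in any library, and the 25 FTH1 pseudogenes 1.57% to 3.22% of the FTH1 count. With the pseudogene counts added, the log2 fold changes were -0.11 for FTL (adjusted p = 0.0161 in edgeR's test) and -0.05 for FTH1. This adds only reads already counted on pseudogenes. How reads that match several places were counted is not given in the sources used here, so their part was not tested. BEST1, which lies on the opposite strand and overlaps FTH1 exons over 1267 bases, had 113 counts in all libraries together against 119832 for FTH1. Whether counting used strand is not given in the sources used here, and the low BEST1 count does not settle it. The FTH1 values are therefore uncertain to that extent.

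NCOA4 (ENSG00000266412, chromosome 10, 46005088 to 46030714), which delivers ferritin to lysosomes for iron release, had 123, 116 and 116 CPM in control replicates 1, 2 and 3 and 111, 111 and 110 CPM in the IL17D replicates. The IL17D libraries were tightly grouped below the controls, of which replicate 1 was highest. The log2 fold change was -0.10 (standard error 0.044, unadjusted p = 0.0323, adjusted p = 0.372 in edgeR's test), which does not pass the adjustment. Of its 31-base stretches, 13.0% occur in other genes, among them its own pseudogenes.

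**Figure D3:**
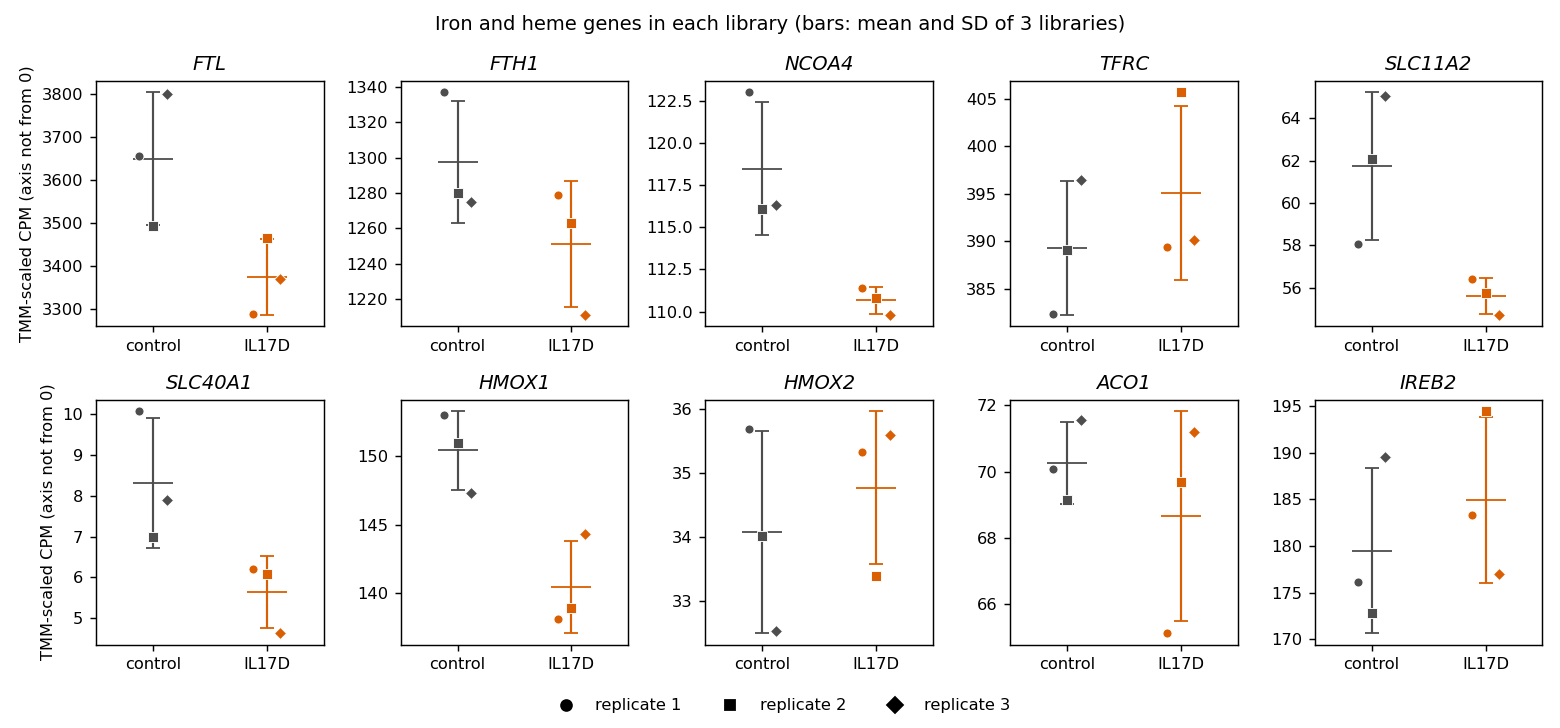
TMM-scaled CPM of each gene in the 3 control and 3 IL17D-overexpressing libraries (vertical axes do not start at 0), with the mean and SD of each group as bars and the replicate number as the point's shape. The IL17D points of FTL, NCOA4, SLC11A2, SLC40A1 and HMOX1 lie below all control points, and the groups overlap for the other 5 genes.

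Among the transport genes, SLC40A1 had the lowest estimate. SLC40A1 (ENSG00000138449, chromosome 2, 189560579 to 189583758) encodes ferroportin, the exporter through which iron leaves cells, and had 164, 101 and 127 counts in the control replicates and 102, 100 and 66 counts in the IL17D replicates. Scaled to library size these were 10.1, 6.98 and 7.90 CPM against 6.20, 6.08 and 4.63 CPM. All IL17D libraries lay below all control libraries, with control replicate 1 well above the rest and IL17D replicate 3 well below. The log2 fold change was -0.56 (standard error 0.16, unadjusted p = 0.00143, adjusted p = 0.0752 in edgeR's test), and the 95% interval of the linear change ran from -45.9% to -14.8%. The gene therefore did not pass the threshold. It had the largest counting error of the 10, near 9.54% of its level. Its spread between libraries was larger still, 19.2% in control and 15.6% in IL17D-overexpressing cells. Its adjusted p was 0.0339 without control replicate 2 and 0.421 without control replicate 1, in the same test.

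SLC11A2 (ENSG00000110911, chromosome 12, 50979401 to 51028566), which encodes the importer that carries iron out of endosomes, had 58.1, 62.1 and 65.0 CPM in control replicates 1, 2 and 3. The IL17D replicates had 56.4, 55.8 and 54.7 CPM, all below the lowest control. Its log2 fold change of -0.15 (standard error 0.058, unadjusted p = 0.0138) did not pass after adjustment (adjusted p = 0.264 in edgeR's test). The gene is known to have transcripts with and without an iron-responsive element, which a count per gene merges.

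TFRC (ENSG00000072274, chromosome 3, 196027183 to 196082189), the receptor that takes up transferrin-bound iron, had 382, 389 and 397 CPM in the control replicates and 389, 406 and 390 CPM in the IL17D replicates. The groups overlapped, with IL17D replicate 2 the highest library. The log2 fold change was 0.02 (standard error 0.033, adjusted p = 0.878 in edgeR's test), and its 95% interval covers linear changes from -3.11% to 6.30%, so that a change in TFRC larger than this range was not seen at this depth.

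The heme oxygenases open the heme ring and release its iron. HMOX1 (ENSG00000100292, chromosome 22, 35380361 to 35394214), the inducible enzyme, had 153, 151 and 147 CPM in control replicates 1, 2 and 3 and 138, 139 and 144 CPM in the IL17D replicates. The groups did not overlap, and IL17D replicate 3 came nearest to the controls. Its log2 fold change of -0.10 (standard error 0.041, unadjusted p = 0.0204) did not pass after adjustment (adjusted p = 0.311 in edgeR's test). HMOX2 (ENSG00000103415, chromosome 16, 4474690 to 4510347), the constitutive enzyme, had 35.7, 34.01 and 32.5 CPM in the control replicates and 35.3, 33.4 and 35.6 CPM in the IL17D replicates. These values are interleaved, and the log2 fold change was 0.03 (standard error 0.071, adjusted p = 0.935 in edgeR's test), with a sign that turned to -0.0046 without control replicate 3. NMRAL1 overlaps HMOX2 exons over 228 bases on the opposite strand with a total count of 2994 against 3233, and whether counting used strand is not given in the sources used here, so the HMOX2 values are uncertain to that extent.

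Neither gene of the iron regulatory proteins passed the test. ACO1 (ENSG00000122729, chromosome 9, 32384603 to 32454769) encodes the protein that is a cytosolic aconitase when it holds an iron-sulfur cluster and binds RNA when it does not, and it had 70.1, 69.1 and 71.6 CPM in the control replicates and 65.1, 69.7 and 71.2 CPM in the IL17D replicates. IREB2 (ENSG00000136381, chromosome 15, 78437431 to 78501456) encodes the protein that is degraded when iron is plentiful, and it had 176, 173 and 190 CPM in the control replicates and 183, 195 and 177 CPM in the IL17D replicates. The groups overlapped for both genes. ACO1 had a log2 difference of -0.03 (standard error 0.053, adjusted p = 0.878 in edgeR's test), and without IL17D replicate 1 it was 0.0038. That of IREB2 was 0.04 (standard error 0.042, adjusted p = 0.774 in the same test). The 95% intervals of the linear change ran from -9.41% to 5.25% for ACO1 and from -2.92% to 9.38% for IREB2.

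Ratios within a library do not depend on how libraries are scaled, and 4 of them were compared with a two-sided exact permutation test over the 6 libraries, whose smallest possible p is 0.1. The summed ferritin counts were 13.1, 12.3 and 12.8 times the TFRC count in control replicates 1, 2 and 3 and 11.7, 11.7 and 11.7 times in the IL17D replicates. This ratio of ferritin to TFRC mRNA counts was lower in all IL17D libraries. The IL17D values lay within a much narrower range than the control values. FTL gave most of the ferritin counts, so the ratio repeats in part the fall of FTL described above. The log2 difference was -0.12 (exact permutation test, p = 0.1, the smallest it can give). The ratio of HMOX1 to HMOX2 was 4.29, 4.44 and 4.53 in the control replicates and 3.91, 4.16 and 4.05 in the IL17D replicates, again without overlap (log2 difference -0.13, p = 0.1, exact permutation test). The ratio of FTL to FTH1 overlapped between groups, with 2.82 ± 0.145 in control and 2.70 ± 0.113 in IL17D-overexpressing cells (SD, n = 3 each; p = 0.6, exact permutation test). The ratio of IREB2 to ACO1 overlapped as well, with 2.55 ± 0.0821 and 2.70 ± 0.183 (SD, n = 3 each; p = 0.4, exact permutation test). Adjusted over the 4 ratios by the Benjamini-Hochberg method, the lowest p was 0.2, and with 3 libraries against 3 no ratio could have passed 0.05 whatever its values. The genes within each ratio differ in length, ferritin and TFRC among them, so these count ratios compare libraries and not the levels of the genes. All 4 ratios use the same counts as the tests of single genes and are not separate evidence.

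**Figure D4:**
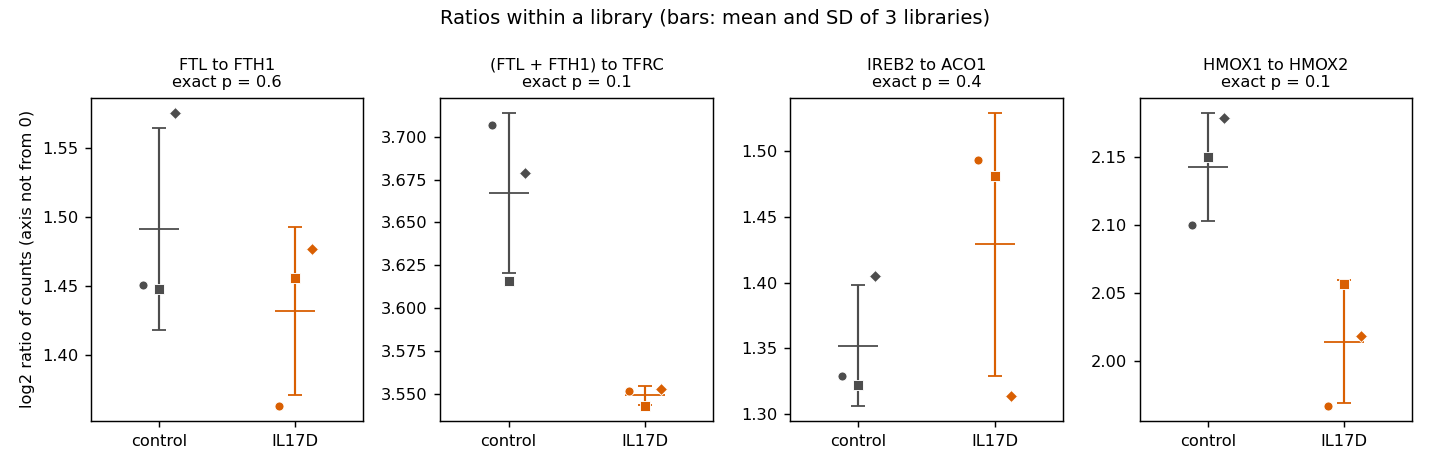
Log2 ratio of counts within each library for FTL to FTH1, summed ferritin to TFRC, IREB2 to ACO1 and HMOX1 to HMOX2, with 3 control and 3 IL17D-overexpressing libraries and bars for mean and SD (vertical axes do not start at 0). Groups are separate for ferritin to TFRC and for HMOX1 to HMOX2, each with the smallest exact p the design allows, 0.1, and overlap for the other ratios.

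The rest of iron and heme handling was described with 10 lists of 108 other genes, of which 96 were tested. In edgeR's test with adjustment over all genes, 2 of the 96 rose and 1 fell, beside 0.673% and 0.908% of all tested genes. EPAS1, a hypoxia-inducible factor gene listed for a known iron-responsive element although the pattern above had no match in its transcripts, rose from 972 ± 20.6 to 1122 ± 7.40 CPM (SD, n = 3 each), a log2 difference of 0.21 with a standard error of 0.028 (adjusted p = 7.3e-06 in edgeR's test). SLC25A37, which imports iron into mitochondria, rose from 140 ± 7.15 to 160 ± 2.04 CPM (log2 fold change 0.19, adjusted p = 0.00842 in edgeR's test), and its adjusted p was 0.0607 without control replicate 1 and 0.0818 without control replicate 2. DMTN, an actin-bundling protein whose place in the uptake list is uncertain, fell from 31.2 ± 2.19 to 25.2 ± 0.24 CPM (log2 fold change -0.31, adjusted p = 0.0335 in edgeR's test). Its adjusted p in this test was 0.0890 without control replicate 1, 0.160 without control replicate 3 and 0.126, 0.0838 and 0.12 without IL17D replicates 1, 2 and 3. Of these 3 genes, EPAS1 alone passed under every alternative tried.

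Described by role, the lists were short, and at 1.58% of all tested genes called, few calls would be found in lists of this size. In the heme synthesis list, 12 of 12 genes were tested and 0 passed, 6 with a higher and 6 with a lower estimate (median log2 fold change -0.0059), and its smallest p was that of UROD with an estimate of -0.22 (adjusted p = 0.288 in edgeR's test). In the list of heme breakdown partners and transport, 12 of 15 were tested and 0 passed, and the smallest p was that of POR, the reductase that feeds electrons to the heme oxygenases (estimate -0.15, adjusted p = 0.0594 in the same test), a gene that did pass without control replicate 3 and with all genes of at least 1 count. In the list of iron export and systemic control 7 of 11 were tested and 0 passed, the smallest p being that of ERFE (estimate -0.41, adjusted p = 0.175). HFE, which binds the transferrin receptor, had the smallest p of the 5 tested genes in the chaperone and storage list (estimate -0.27, adjusted p = 0.0605 in edgeR's test). The place of HFE in that list is uncertain. HERC2 had the smallest p of the 6 genes acting on the iron regulatory proteins (estimate -0.08, adjusted p = 0.394 in the same test). MMS19 had that of the 8 cytosolic iron-sulfur assembly genes (estimate -0.12, adjusted p = 0.313 in the same test). Of the mitochondrial iron and iron-sulfur genes, 21 of 22 were tested, and 9 had a higher and 12 a lower estimate. Of 8 NRF2 and BACH1 target genes outside iron handling, 0 passed and 6 had a lower estimate, with a median of -0.06 and with GCLM at -0.13 (adjusted p = 0.121 in edgeR's test). At an unadjusted p under 0.05, 6 of the 96 genes were higher and 12 lower, beside 5.59% and 5.99% of all tested genes, and the median of the 96 log2 fold change was -0.02. The iron hormone gene HAMP, the transferrin gene TF and the mitochondrial ferritin gene FTMT were among the 12 genes with too few counts to test.

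**Figure D5:**
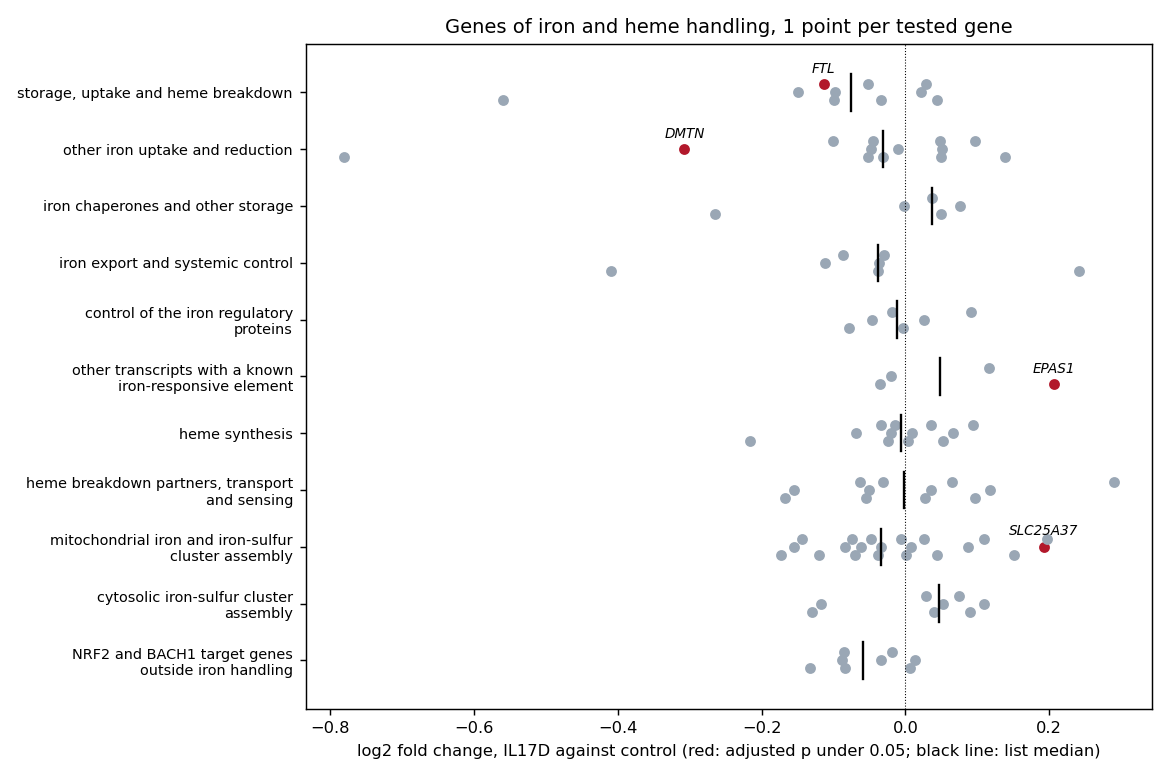
Log2 fold change of every tested gene in the 10 genes of storage, uptake and heme breakdown (top) and in 10 lists of other iron and heme genes, 1 point per gene, with the list median as a black line. Red points passed after adjustment in edgeR's test, namely FTL, DMTN, EPAS1 and SLC25A37, and most points lie within 0.2 of 0.

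The stem-loop was also used to sort genes by sequence alone, a choice made after the results were seen. Apart from FTL, FTH1 and SLC40A1, 33 genes hold the pattern in an annotated 5′ UTR, of which 26 were tested and 1 passed, where 1.58% of all tested genes did. That gene was CSF1, the macrophage growth factor (log2 fold change -0.38, adjusted p = 0.00705 in edgeR's test), named because it was the only one. Of 131 genes other than TFRC with the pattern in a 3′ UTR, 103 were tested and 1, USP36, passed (log2 fold change 0.17, adjusted p = 0.0426 in edgeR's test). With 1 call in each group, nothing can be read from these counts. The medians of these groups were -0.010 and -0.013 on the log2 scale.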

How the data were processed

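The authors deposited 1 table of raw read counts per gene, not normalized, with 1 column per library. The submitters' processing notes name Bowtie2 and hg38. The counting tool and the use of strand are not given in the sources used here. Of the 58735 genes, 58724 have the same start and end in GENCODE release 29. No per-sample column was left out.

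Groups were taken from the sample titles. Genes were kept by filterByExpr, libraries were scaled by TMM, and groups were compared with edgeR's quasi-likelihood test (edgeR 4.0.16, limma 3.58.1, DESeq2 1.42.0, R 4.3.3) with Benjamini-Hochberg adjustment over 15754 genes. Intervals cover 95%. Limits for a count of 0 used 3 counts and cover counting error only. Lengths are merged exons. The steps were tested on simulated data. All 10 genes and, per list, the genes with an adjusted p under 0.05 and the smallest p are named. The genes and lists were chosen with earlier results of these data known.

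Libraries with the same number did not deviate together (correlations 0.010, -0.012 and -0.015). Chi-square per degree of freedom was 2.05 to 2.89 within groups, so no library was a copy. Alternatives were DESeq2's size factors, total counts, other filters, DESeq2, limma voom, the replicate number as a block, added pseudogene counts and leaving out each library.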

Additional observations from a re-analysis of the deposited data

How the results depend on the processing

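The count of the 10 genes with an adjusted p under 0.05 was 1 (FTL), and it was 2 (FTL and SLC40A1) with all genes of at least 1 count and with the replicate block; leaving out 1 library gave 0 to 2. With an unadjusted p under 0.05 the count was 5, and it was 3 to 5 without 1 library, 4 with DESeq2 and 6 with limma voom. FTH1 was among the genes counted with limma voom (unadjusted p = 0.0373 in its test). It was also counted without control replicate 3 (unadjusted p = 0.0319 in edgeR's test). Of the 96 other iron and heme genes, 3 passed, and 2 to 4 under the alternatives; POR passed with all genes of at least 1 count, with the replicate block and without control replicate 3, NFS1 without control replicate 1 and GCLM without IL17D replicate 2. Over all genes, 249 passed, 187 with DESeq2 and 145 to 267 without 1 library (155 without IL17D replicate 1 and 145 without IL17D replicate 3). Without 1 library, the log2 fold change of HMOX2 ranged from -0.0046 (without control replicate 3) to 0.0652 and that of ACO1 from -0.0589 to 0.0038 (without IL17D replicate 1), so both turned in sign; the cause was not tested. The log2 fold changes of FTL ranged from -0.14 to -0.08 (adjusted p 0.000655 to 0.2) and those of SLC40A1 from -0.67 to -0.39 (0.0339 to 0.421) over the edgeR, DESeq2 and limma alternatives. The numbers share no stated source and the libraries did not deviate together, so the block (272 genes passed) does not pair them. The other 8 genes kept their side of the threshold in every alternative, and the 4 ratios kept their direction. SLC40A1 had the largest counting error of the 10 genes, and its spread between libraries exceeded it.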
